A study of Mus musculus with 26 samples.

Results

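Regulatory T cells (Treg) that lacked the transcription factor BATF were compared with conventional CD4+ T cells (Tconv) to find which of the differences between Treg and Tconv were still measured without BATF. The comparison rests on 4 of the 26 RNA-seq libraries of the series, all genes included. The BATFKO Treg group (2 libraries) was CD4+hCD2+ cells of genotype Foxp3-IRES-hCD2.Batf-/-. WT Treg (2 libraries), CD4+hCD2+ cells of genotype Foxp3-IRES-hCD2, are given beside them. WT Tconv (2 libraries) were CD4+hCD2- cells of that same genotype. The mice were C57BL6/J, the cells were sorted fresh from their lymph nodes and spleen, and all carried the Foxp3-IRES-hCD2 allele, which puts human CD2 (hCD2) on the surface of cells that transcribe Foxp3. Ages are not stated. Batf was deleted in the germline, so BATFKO Treg came from mice in which every cell lacked the gene, whereas both WT groups came from mice with intact Batf and no BATFKO Tconv were analysed here. The Tconv libraries were grouped by their titles, since another label calls the sorted hCD2- cells Treg.

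Treg restrain immune responses and depend on Foxp3, a forkhead factor that marks the lineage. They survive on IL-2 made by other T cells, suppress through CTLA-4, IL-10, adenosine-generating enzymes and activation of TGF-beta, and exist as resting central cells and as activated effector cells that enter tissues. BATF is a small AP-1 (bZIP) protein that pairs with JUN proteins and, together with IRF4 or IRF8, binds composite AP-1 and IRF elements of genes induced in activated T cells. It is known for roles in Th17 cells, follicular helper T cells and tissue Treg.

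AP-1 proteins recognise the letters TGANTCA, and one form of the composite element of BATF and IRF4 is GAAA followed directly by TGANTCA. The promoter windows of a pair of genes are shown because they carry such letters and because the genes changed in opposite directions between the Treg genotypes: Ccr4, a receptor gene of effector Treg that was lower in BATFKO Treg than in WT Treg, and Gbp2, an interferon-induced GTPase gene that was higher. Capitals mark TGANTCA, the composite letters and the interferon response letters (TTTC, 2 bases of any kind, TTTC), searched on both strands, in RefSeq windows (GRCm38.p6) from 250 bases before to 50 bases after the gene start, read 5′ to 3′ along the gene. The Ccr4 window is chr9:114496495-114496794 on the minus strand and holds the composite letters, whose TGANTCA part starts 143 bases before the gene start, and this RefSeq start lies within the longer GENCODE span of the gene given below. The Gbp2 window is chr3:142620413-142620712 on the plus strand, with TGANTCA starting 102 bases and the interferon response letters starting 59 bases before the RefSeq gene start. The RefSeq start of Gbp2 also lies within the GENCODE span given below, which covers the interferon response letters.
Ccr4: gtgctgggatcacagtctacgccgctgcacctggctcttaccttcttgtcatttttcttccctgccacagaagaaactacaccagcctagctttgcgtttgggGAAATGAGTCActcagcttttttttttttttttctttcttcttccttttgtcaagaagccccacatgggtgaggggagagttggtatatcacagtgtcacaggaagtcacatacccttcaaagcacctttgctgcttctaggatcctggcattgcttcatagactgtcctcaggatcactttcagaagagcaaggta
Gbp2: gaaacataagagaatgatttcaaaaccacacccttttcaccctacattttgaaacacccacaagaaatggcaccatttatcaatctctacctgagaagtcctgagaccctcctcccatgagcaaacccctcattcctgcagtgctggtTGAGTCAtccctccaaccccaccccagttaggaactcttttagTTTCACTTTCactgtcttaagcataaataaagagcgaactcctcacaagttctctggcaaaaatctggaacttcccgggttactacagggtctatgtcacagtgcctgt
A match is a description of letters, not a binding site.

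The authors' counts totalled 7300917 and 6268841 reads in the BATFKO Treg libraries, 7171323 and 6243918 in the WT Treg libraries and 5615929 and 6504506 in the Tconv libraries. Values below are CPM (read counts scaled to library size after TMM normalization), library 1 first, and log2 fold changes ± approximate SE. A gene was called at an adjusted p below 0.05 in edgeR's quasi-likelihood test, fitted over all 26 libraries with Benjamini-Hochberg adjustment over the 12227 genes tested. All 6 libraries had high Cd3e and Cd4, at 667 to 746 and 685 to 1013 CPM, while Cd8a stayed at or below 0.496 CPM. In each group library 2 held more Jun, an immediate early gene, than library 1, with 769 and 1942 CPM in BATFKO Treg, 1179 and 2295 CPM in WT Treg and 1180.0 and 2202 CPM in Tconv. Whether a group's libraries came from separate animals is not stated, so p-values measure spread between libraries, which need not be spread between animals. That spread was pooled from all 13 groups, and the groups compared here varied more within themselves than the others did. The chi-square per degree of freedom between a group's libraries was 30.26 in BATFKO Treg, 23 in WT Treg and 21.95 in Tconv. In the other groups it was 3.044 to 7.904, so the p-values may understate the spread within the groups compared here.

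BATFKO Treg differed widely from Tconv, with 1563 genes called higher (12.8% of those tested) and 1117 called lower (9.14%). Against the same Tconv libraries, WT Treg had 1475 genes called higher (12.1%) and 817 lower (6.68%). Because both comparisons use those libraries, their values are set side by side, and the difference between them was tested as BATFKO Treg against WT Treg, where 128 genes were higher (1.05%) and 201 lower (1.64%), together 2.69% of the genes tested. In bulk RNA of a whole sorted fraction, fewer cells of a type and less RNA per cell cannot be told apart. The targeted gene, Batf (mm10 chr12:85686669-85709087, plus strand), was counted at 7.22 and 6.83 CPM in BATFKO Treg, 46.1 and 82.9 CPM in WT Treg and 31.7 and 58 CPM in Tconv. Both BATFKO libraries were below all others, with a log2 change of -2.67 ± 0.34 against Tconv (adjusted p = 9.89e-06), and the labels do not say which part of the gene was deleted. WT Treg and Tconv overlapped in Batf (0.51 ± 0.28, adjusted p = 0.232), a difference that was called without WT Treg library 1 or without Tconv library 2. Foxp3 (chrX:7573644-7595245, plus strand) had 408 and 574 CPM in BATFKO Treg, 404 and 505 CPM in WT Treg and 4.07 and 2.57 CPM in Tconv. It was far above Tconv in both kinds of Treg (7.22 ± 0.22, adjusted p = 1.84e-13 for BATFKO Treg). Cells were sorted on hCD2 made from the Foxp3 locus, so this height over Tconv was set by the gate, with or without BATF. Between the Treg groups Foxp3 did not pass the test (0.11 ± 0.15, adjusted p = 0.93).

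The genes that define Treg were still high without BATF. All 25 members of the Treg core list were called higher in BATFKO Treg than in Tconv, with a median log2 change of 3.46 against -0.01 over all tested genes. Foxp3, whose locus carries the sorting marker, is among them. In WT Treg all 25 were higher too, with a median of 3.94. Summed over the list, the libraries reached 7600 and 7720 CPM in BATFKO Treg, 8180 and 8574 CPM in WT Treg and 676 and 888 CPM in Tconv. Lrrc32 (chr7:98489283-98502181, plus strand), which encodes the GARP protein that holds latent TGF-beta on the Treg surface, had 416 and 650.0 CPM in BATFKO Treg, 441 and 655 CPM in WT Treg and 0.177 and 0.803 CPM in Tconv. The Treg libraries of both genotypes overlapped, and the change over Tconv was 10.01 ± 0.48, adjusted p = 3.54e-11 in BATFKO Treg. Il2ra, the high-affinity IL-2 receptor chain CD25, had 711 and 546 CPM in BATFKO Treg, 655 and 404 CPM in WT Treg and 8.84 and 5.62 CPM in Tconv, with 6.45 ± 0.31, adjusted p = 3.54e-11 over Tconv in BATFKO Treg. Ikzf4, an Ikaros family repressor (Eos), had 147 and 159 CPM in BATFKO Treg, 164 and 170.0 CPM in WT Treg and 9.9 and 11.9 CPM in Tconv and a change of 3.81 ± 0.14, adjusted p = 2.69e-12. Its relative Ikzf2 (Helios) reached 1050.0 and 548 CPM in BATFKO Treg, 1237 and 852 CPM in WT Treg and 36.1 and 35.2 CPM in Tconv, and its BATFKO and WT Treg libraries overlapped.

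Between BATFKO and WT Treg, 5 of the 25 core genes were called, 2 higher and 3 lower. These are 8% and 12%, against 1.05% and 1.64% of all tested genes. Nrp1 (neuropilin-1), Cd83 and Penk, which encodes the opioid precursor proenkephalin, were lower, and Swap70 and Plagl1 were higher. Nrp1 had 178 and 139 CPM in BATFKO Treg, 391 and 394 CPM in WT Treg and 20.9 and 28.8 CPM in Tconv, which puts BATFKO Treg between the other groups without overlap (-1.30 ± 0.17, adjusted p = 0.000209 against WT Treg, 2.67 ± 0.20, adjusted p = 1.03e-08 against Tconv). Penk had the same order, with 22.9 and 12.2 CPM in BATFKO Treg, 58.3 and 74.5 CPM in WT Treg and 1.59 and 3.05 CPM in Tconv (-1.90 ± 0.26, adjusted p = 0.000292 against WT Treg). Swap70 had 179.7 and 142 CPM in BATFKO Treg, 111 and 112 CPM in WT Treg and 10.1 and 8.83 CPM in Tconv, a change of 0.54 ± 0.13, adjusted p = 0.0301 against WT Treg that was not called when BATFKO library 1 or either WT Treg library was left out. Cd83, a surface protein of activated lymphocytes, and Plagl1, a zinc finger gene, were named after their values were seen. Cd83 had 49.7 and 43.3 CPM in BATFKO Treg, 117 and 132 CPM in WT Treg and 2.65 and 4.82 CPM in Tconv, a log2 change of -1.42 ± 0.22 against WT Treg. Plagl1 had 136 and 114 CPM in BATFKO Treg, 37 and 37.2 CPM in WT Treg and 2.12 and 2.09 CPM in Tconv, a log2 change of 1.76 ± 0.24 against WT Treg, so that BATFKO Treg were the highest of the 3 groups.

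**Figure D1:**
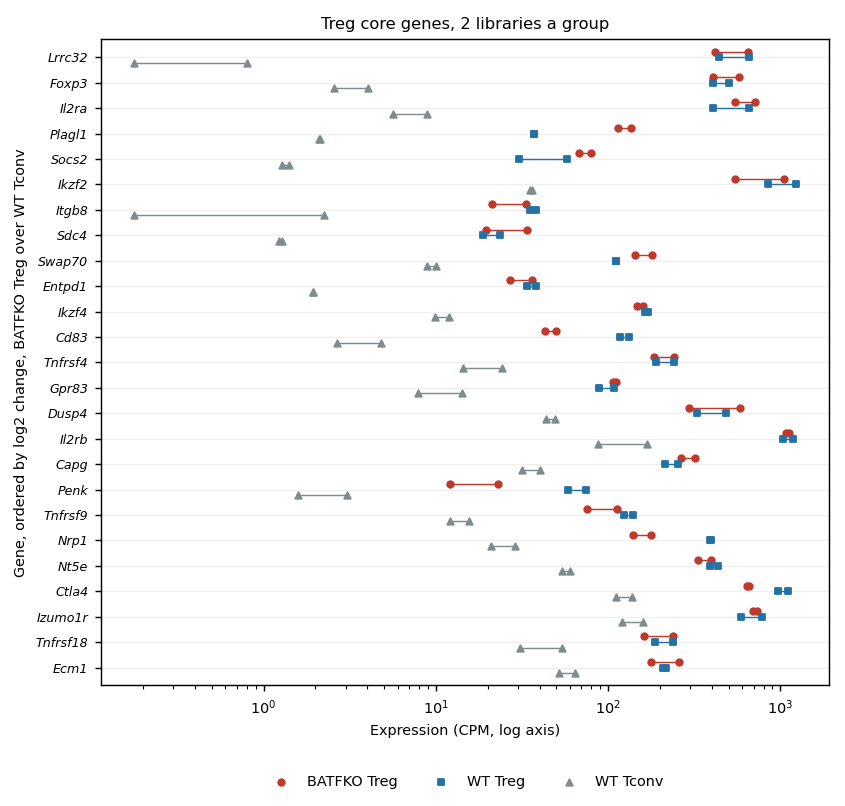
Expression of the 25 Treg core genes in each library, in CPM on a log axis; circles are BATFKO Treg, squares WT Treg and triangles WT Tconv, joined within a group of 2 libraries. All 25 genes sit further right in both kinds of Treg than in Tconv, with Nrp1, Cd83 and Penk lower and Plagl1 higher in BATFKO Treg than in WT Treg.

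The IL-2 receptor and its feedback inhibitors were high in BATFKO Treg. Of 12 genes of the IL-2 pathway, 7 were higher and 2 lower in BATFKO Treg than in Tconv, against 5 and 2 in WT Treg. The 7 and 2 are 58.3% and 16.7%, against 12.8% and 9.14% of all tested genes. Il2rb, the receptor's beta chain, had 1082 and 1116 CPM in BATFKO Treg, 1036 and 1189 CPM in WT Treg and 87.7 and 168 CPM in Tconv. The STAT5 targets Cish and Socs2, which encode feedback inhibitors of cytokine receptors, were also far above Tconv. Cish had 225 and 320.4 CPM in BATFKO Treg, 221 and 284 CPM in WT Treg and 16.4 and 24.1 CPM in Tconv (3.74 ± 0.23, adjusted p = 9.53e-10 for BATFKO Treg against Tconv). Socs2 had 79.7 and 68.1 CPM in BATFKO Treg, 57.5 and 30.4 CPM in WT Treg and 1.42 and 1.28 CPM in Tconv (5.77 ± 0.39, adjusted p = 4.42e-09). The common gamma chain Il2rg, shared by all T cells, had 646 and 617 CPM in BATFKO Treg, 609.7 and 542 CPM in WT Treg and 622 and 557 CPM in Tconv and was not called against Tconv (adjusted p = 0.501). The cytokine gene Il2 itself, silenced by Foxp3 in Treg, had 1 read in both BATFKO libraries together, a count ratio 21.6-fold lower than Tconv with a 95% interval of 3.43 to 896 that covers counting error only. Il2 had 1.59 and 1.61 CPM in Tconv.

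In TGF-beta activation and signalling, 6 of 13 genes were higher and 4 lower in BATFKO Treg than in Tconv (6 and 3 in WT Treg). The 6 and 4 are 46.2% and 30.8%, against 12.8% and 9.14% of all tested genes. Lrrc32 and Itgb8 lay on the high side. Itgb8, the integrin chain that frees TGF-beta from its latent form, had 33.3 and 21.3 CPM in BATFKO Treg, 37.9 and 35.2 CPM in WT Treg and 0.177 and 2.25 CPM in Tconv (4.44 ± 0.54, adjusted p = 9.23e-06 in BATFKO Treg). The receptor genes Tgfbr2 and Tgfbr3 lay on the low side. Tgfbr3, which encodes the co-receptor betaglycan, had 17.6 and 24.5 CPM in BATFKO Treg, 33 and 35.2 CPM in WT Treg and 192 and 184 CPM in Tconv. It was lower in BATFKO Treg than in Tconv (-3.16 ± 0.14, adjusted p = 2.13e-11), and its further drop below WT Treg (-0.70 ± 0.15, adjusted p = 0.00994) was not called without BATFKO library 1 or without WT Treg library 2. The signal transducer gene Smad3 did not pass the test against Tconv, at -0.09 ± 0.12.

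Most suppressor molecules were high without BATF as well. Of the list, 12 of the 16 genes tested were higher and 1 lower in BATFKO Treg than in Tconv (median log2 change 2.47), while in WT Treg 15 were higher and 1 lower (median 3.24). The 12 and 1 are 75% and 6.25%, against 12.8% and 9.14% of all tested genes. Between BATFKO and WT Treg, 1 was higher and 2 were lower (6.25% and 12.5%, against 1.05% and 1.64% of all tested genes). Il12a, the 17th gene of the list, did not pass the filter on low counts. Entpd1 and Nt5e encode CD39 and CD73, which turn ATP into adenosine. Entpd1 had 36.4 and 26.8 CPM in BATFKO Treg, 37.9 and 33.9 CPM in WT Treg and 1.95 and 1.93 CPM in Tconv, and its BATFKO and WT Treg libraries overlapped. Nt5e had 394 and 330.4 CPM in BATFKO Treg, 436 and 393 CPM in WT Treg and 54 and 59.7 CPM in Tconv, with both kinds of Treg far above Tconv. Ebi3, a subunit of IL-27 and IL-35, had 25 and 25.7 CPM in BATFKO Treg, 11.4 and 20.6 CPM in WT Treg and 0.354 and 0.964 CPM in Tconv (5.21 ± 0.41, adjusted p = 4.99e-08 in BATFKO Treg). Cd274 (PD-L1) had 192 and 211 CPM in BATFKO Treg, 151 and 158 CPM in WT Treg and 90.9 and 79.2 CPM in Tconv. It was higher in BATFKO Treg than in Tconv (1.24 ± 0.09, adjusted p = 8.96e-09) and than in WT Treg (0.38, adjusted p = 0.019). Prf1 (perforin), the gene that was lower, had 4.41 and 7.33 CPM in BATFKO Treg, 2.72 and 6.11 CPM in WT Treg and 11.7 and 28.4 CPM in Tconv. Ctla4 and Il10 were named after their values were seen. Ctla4, which strips B7 ligands from antigen-presenting cells, had 660.3 and 639 CPM in BATFKO Treg, 974 and 1108 CPM in WT Treg and 111 and 138 CPM in Tconv. Its BATFKO libraries were below both WT Treg libraries, a difference that did not pass the test (-0.68 ± 0.19, adjusted p = 0.0738), and were above Tconv (2.38 ± 0.21, adjusted p = 8.51e-08). Il10 had 74.8 and 74 CPM in BATFKO Treg, 49.6 and 35.5 CPM in WT Treg and 1.06 and 0.803 CPM in Tconv (6.31 ± 0.80, adjusted p = 1.31e-05 for BATFKO Treg against Tconv).

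Tigit, Gzmb and Havcr2 were the 3 suppressor genes that were called higher in WT Treg but not in BATFKO Treg, both against Tconv. Tigit (chr16:43648867-43664146, minus strand), an inhibitory receptor of effector Treg, had 8.55 and 5.0 CPM in BATFKO Treg, 71 and 104 CPM in WT Treg and 5.66 and 10.6 CPM in Tconv. BATFKO Treg overlapped Tconv, and both were below WT Treg without overlap. The log2 change was -0.25 ± 0.61, adjusted p = 0.831 for BATFKO Treg against Tconv, 3.41 ± 0.50, adjusted p = 5.79e-05 for WT Treg against Tconv and -3.66 ± 0.51, adjusted p = 0.000292 between the Treg groups. Gzmb, which encodes the cytotoxic protease granzyme B, had 2.67 and 1.33 CPM in BATFKO Treg, 12.1 and 3.8 CPM in WT Treg and 0.884 and 0.321 CPM in Tconv (1.78 ± 0.82, adjusted p = 0.135 in BATFKO Treg against Tconv). It was lower in BATFKO than in WT Treg (-1.97, adjusted p = 0.0387). Havcr2 (TIM-3), an inhibitory receptor, had 0.668 and 1.5 CPM in BATFKO Treg, 5.03 and 1.49 CPM in WT Treg and 0 and 0.321 CPM in Tconv, a count ratio of 6.17 for BATFKO Treg over Tconv (95% interval 1.42 to 55.9, counting error only) that did not pass the test (adjusted p = 0.202), and its call in WT Treg was lost without WT Treg library 1 or Tconv library 1.

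Of the 14 TNF receptor superfamily genes and ligands, 9 were higher and 2 lower in BATFKO Treg than in Tconv, the same counts as in WT Treg. These are 64.3% and 14.3%, against 12.8% and 9.14% of all tested genes in BATFKO Treg. Tnfrsf4 (OX40), a costimulatory receptor, had 184 and 241 CPM in BATFKO Treg, 190.2 and 243 CPM in WT Treg and 14.3 and 24.1 CPM in Tconv (3.46 ± 0.23, adjusted p = 4.05e-09 in BATFKO Treg). Tnfrsf18 (GITR) had 162 and 239 CPM in BATFKO Treg, 187 and 237 CPM in WT Treg and 30.8 and 53.8 CPM in Tconv. For Tnfrsf4 and Tnfrsf18 the libraries of both kinds of Treg overlapped. Tnfrsf9 (4-1BB) had 113 and 75.1 CPM in BATFKO Treg, 139.9 and 124 CPM in WT Treg and 15.6 and 12 CPM in Tconv. The ligand gene Cd40lg, used by helper T cells to stimulate B cells, went the other way, with 16.6 and 12.5 CPM in BATFKO Treg, 27.6 and 32.4 CPM in WT Treg and 145 and 116 CPM in Tconv. It was lower in BATFKO Treg than in Tconv (-3.15 ± 0.16, adjusted p = 6.22e-11) and than in WT Treg (-1.03 ± 0.16, adjusted p = 0.000991).

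Among 24 Foxp3 partners and lineage factors, 6 were higher and 5 lower in BATFKO Treg than in Tconv (7 and 5 in WT Treg). The 6 and 5 are 25% and 20.8%, against 12.8% and 9.14% of all tested genes. Ikzf1 (Ikaros) had 634 and 644 CPM in BATFKO Treg, 624 and 562 CPM in WT Treg and 1321 and 1154 CPM in Tconv and was lower in both kinds of Treg. Ets1 and Bcl11b, broad T cell factors, were uncalled at -0.10 ± 0.11 and -0.06 ± 0.17. Among the 19 bZIP and IRF genes tested, Irf4 (chr13:30749226-30766976, plus strand), the partner of BATF, had 287 and 310.5 CPM in BATFKO Treg, 167 and 164 CPM in WT Treg and 148 and 170.1 CPM in Tconv. It was higher in BATFKO Treg than in either WT population (0.91 ± 0.12, adjusted p = 2.07e-05 against Tconv, 0.85 ± 0.12, adjusted p = 0.000424 against WT Treg), whereas WT Treg and Tconv overlapped (0.05 ± 0.12, adjusted p = 0.832). Irf8, another IRF partner of BATF, had 67.5 and 75.5 CPM in BATFKO Treg, 34.1 and 36.7 CPM in WT Treg and 9.02 and 16.7 CPM in Tconv (2.46 ± 0.36, adjusted p = 4.75e-05 against Tconv, 1.01 ± 0.32, adjusted p = 0.129 against WT Treg). Maf had 262 and 256 CPM in BATFKO Treg, 273 and 257 CPM in WT Treg and 56.6 and 67.5 CPM in Tconv, with 2.06 ± 0.26, adjusted p = 1.03e-05 for BATFKO Treg against Tconv.

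Further lists came from 8 libraries of sorted wild-type cells (central and effector Treg, naive and effector Tconv), whose values enter none of the contrasts above, although they share in the estimate of spread. There, 7.91% of the tested genes were called higher and 4.29% lower in central Treg than in naive Tconv, 8.21% higher and 7.26% lower in effector Treg than in effector Tconv, and 31.1% in either direction between effector and central Treg. Nearly all genes that marked Treg in both resting and effector cells were also high in BATFKO Treg. The shared lineage list holds 110 genes called and at least 2-fold higher both in central Treg than in naive Tconv and in effector Treg than in effector Tconv, and not 2-fold higher in effector than in central Treg. Of these, 99 were higher in BATFKO Treg than in Tconv and the other 11 were not called (median log2 change 2.64), and 102 were higher in WT Treg (median 2.40). The effector lineage list (118 genes, also higher in effector than in central Treg) had 107 higher and 1 lower in BATFKO Treg (median 3.08) and 114 higher in WT Treg (median 3.48). The Treg-low list holds 101 genes that were lower in Treg in both of these comparisons, and 91 of them were lower in BATFKO Treg (median -2.55), against 90 in WT Treg (median -2.06). Dst, the cytoskeletal linker dystonin, from the effector lineage list, had 307 and 367 CPM in BATFKO Treg, 277 and 297 CPM in WT Treg and 15.4 and 20.4 CPM in Tconv. Myo1e, a class I myosin, had 97.2 and 68 CPM in BATFKO Treg, 83.3 and 73.3 CPM in WT Treg and 2.48 and 3.05 CPM in Tconv. BATFKO and WT Treg libraries of Myo1e overlapped, and both genes passed the test against Tconv (4.23 ± 0.18, adjusted p = 7.66e-12 for Dst, 4.89 ± 0.22, adjusted p = 1.62e-11 for Myo1e, both in BATFKO Treg).

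Of the genes that marked Treg at the effector stage alone, fewer were called above Tconv in BATFKO Treg than in WT Treg. The effector-only Treg list holds 215 genes that were at least 2-fold higher in effector Treg than in both effector Tconv and central Treg and were not called between central Treg and naive Tconv. In BATFKO Treg 92 of them were higher than in Tconv and the other 123 were not called (median 1.44), against 146 higher in WT Treg (median 2.49). That is 42.8% and 67.9%, against 12.8% and 12.1% of all tested genes. Between BATFKO and WT Treg, 34 were lower and 6 higher (median -0.65). These are 15.8% and 2.79%, against 1.64% and 1.05% of all tested genes. The activation list (907 genes higher in effector than in resting cells of both lineages) had 324 higher and 47 lower in BATFKO Treg (median 0.80) and 421 higher and 9 lower in WT Treg (median 1.27). The higher shares were 35.7% and 46.4%, against 12.8% and 12.1% of all tested genes. The lower shares, 5.18% and 0.992%, were under the 9.14% and 6.68% of all tested genes. Of the 907, 84 were lower (9.26%) and 21 higher (2.32%) in BATFKO than in WT Treg. Plcb4, a phospholipase C gene of the effector-only list, had 6.68 and 4.5 CPM in BATFKO Treg, 27.2 and 23.6 CPM in WT Treg and 5.84 and 4.5 CPM in Tconv. BATFKO Treg overlapped Tconv in Plcb4 (0.14 ± 0.28, adjusted p = 0.787), and the change against WT Treg was -2.17 ± 0.23, adjusted p = 1.74e-05. Cldnd1 had 35 and 27.1 CPM in BATFKO Treg, 73.1 and 62.6 CPM in WT Treg and 28.3 and 25.4 CPM in Tconv (0.22 ± 0.14, adjusted p = 0.31 against Tconv, -1.12 ± 0.13, adjusted p = 7.83e-05 against WT Treg). Sema6d, a semaphorin gene, had 0.535 and 0.333 CPM in BATFKO Treg, 7.48 and 16.5 CPM in WT Treg and 0.354 and 0.482 CPM in Tconv, with BATFKO Treg and Tconv overlapping.

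**Figure D2:**
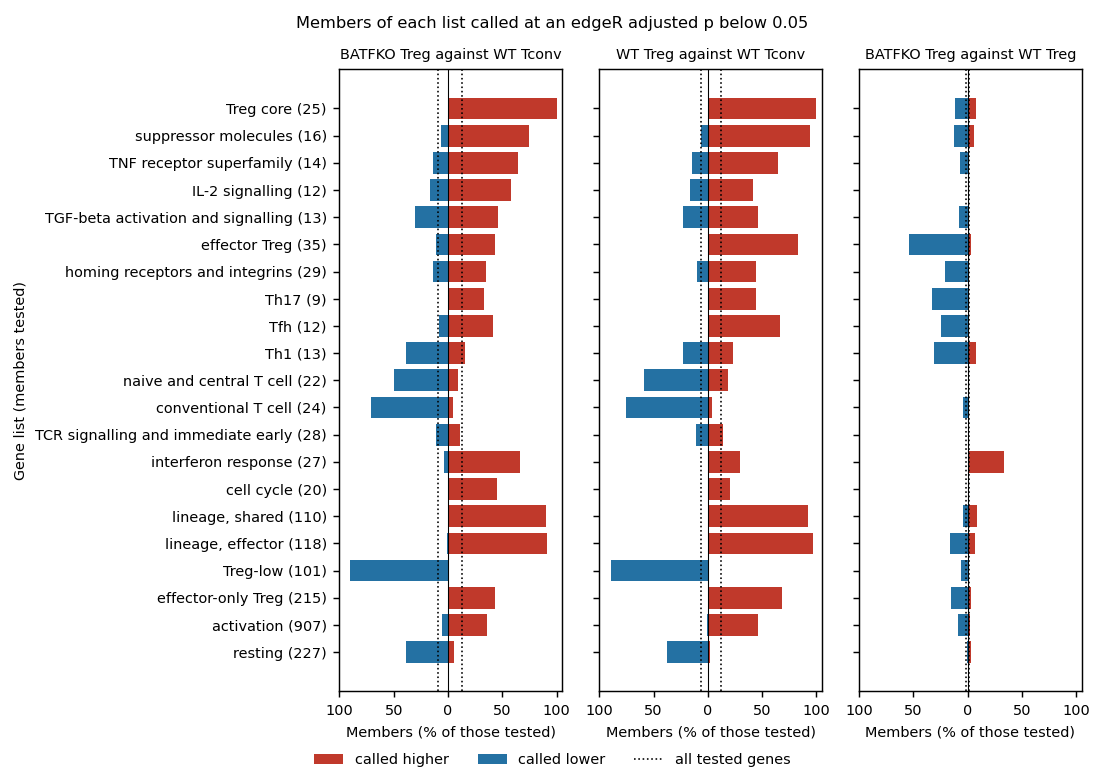
Percent of the tested members of each gene list called higher (right) and lower (left) in BATFKO Treg against WT Tconv, WT Treg against WT Tconv and BATFKO Treg against WT Treg; dotted lines give the percent among all tested genes. The Treg core and lineage lists have nearly all members called higher in both kinds of Treg, whereas the effector Treg list has 43% of its members called higher in BATFKO Treg and 83% in WT Treg.

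Fewer genes known from effector Treg were above Tconv in BATFKO Treg than in WT Treg. Like the other lists of known genes, this list was written with earlier results of these data known, so its shares are no independent check. Of the 35 genes of the list, 15 were higher and 4 lower in BATFKO Treg than in Tconv (median 0.58), against 29 higher in WT Treg (median 1.73). The 15 and 4 are 42.9% and 11.4%, against 12.8% and 9.14% of all tested genes. Between BATFKO and WT Treg, 19 were lower and 1 higher (median -1.22). These are 54.3% and 2.86%, against 1.64% and 1.05% of all tested genes. Some effector genes were high in both kinds of Treg. Ccr6, a receptor for the chemokine CCL20, had 41.2 and 34.6 CPM in BATFKO Treg, 41.5 and 30.2 CPM in WT Treg and 2.83 and 1.93 CPM in Tconv (4.0 ± 0.34, adjusted p = 7.51e-08 for BATFKO Treg against Tconv). Il1rl1, the IL-33 receptor ST2, had 65.5 and 22.7 CPM in BATFKO Treg, 44 and 37.8 CPM in WT Treg and 0.354 and 0.642 CPM in Tconv (6.43 ± 0.67, adjusted p = 1.49e-06). For Ccr6 the BATFKO and WT Treg libraries overlapped, while for Il1rl1 one BATFKO library was above and the other below both WT Treg libraries, and neither gene was called between Treg groups (adjusted p = 0.992 for Ccr6 and 0.992 for Il1rl1). Klrg1, a receptor of terminally differentiated effector cells that was named after its values were seen, had 16.2 and 3.83 CPM in BATFKO Treg, 18.8 and 15.7 CPM in WT Treg and 0.354 and 0.482 CPM in Tconv (4.58 ± 0.79, adjusted p = 0.000325 for BATFKO Treg against Tconv). Its difference from WT Treg was not called (-0.74 ± 0.42, adjusted p = 0.547) except when BATFKO library 1 was left out.

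A second group of effector genes lay between the other populations. Itgae (chr11:73090583-73147446, plus strand), the integrin chain CD103 that binds E-cadherin on epithelia, had 17.2 and 19.8 CPM in BATFKO Treg, 137 and 146 CPM in WT Treg and 2.65 and 1.61 CPM in Tconv. No groups overlapped. BATFKO Treg were above Tconv (3.13 ± 0.32, adjusted p = 6.58e-07) and below WT Treg (-2.94 ± 0.20, adjusted p = 1.41e-07). The chemokine receptor gene Ccr8 had 15 and 20.7 CPM in BATFKO Treg, 46.1 and 68.7 CPM in WT Treg and 6.19 and 8.19 CPM in Tconv. It was called against WT Treg (-1.69 ± 0.26, adjusted p = 0.000718) and against Tconv (1.29 ± 0.31, adjusted p = 0.00507), and the call against Tconv was lost without Tconv library 1. Ahr, the aryl hydrocarbon receptor, had 34.4 and 30.8 CPM in BATFKO Treg, 57.5 and 56.2 CPM in WT Treg and 11.3 and 9.96 CPM in Tconv, a change of 1.62 ± 0.21, adjusted p = 1.45e-05 against Tconv. Rgs9, a regulator of G-protein signalling that belongs to the effector lineage list, had 11 and 8.16 CPM in BATFKO Treg, 55.5 and 54.2 CPM in WT Treg and 0.531 and 0.964 CPM in Tconv. Acsbg1, an acyl-CoA synthetase gene, had 34.6 and 39.3 CPM in BATFKO Treg, 79.8 and 107 CPM in WT Treg and 22.3 and 19.3 CPM in Tconv. Both were called against WT Treg (-2.51 ± 0.20 for Rgs9, -1.34 ± 0.17 for Acsbg1) and against Tconv (3.65 ± 0.37 and 0.83 ± 0.19).

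In a further group of effector genes WT Treg were above Tconv, while BATFKO Treg were not called against Tconv. Ccr4 (chr9:114490316-114504916, minus strand), whose promoter window is printed above, is a receptor for CCL17 and CCL22 that guides Treg to skin and inflamed tissue. It had 5.21 and 2.67 CPM in BATFKO Treg, 63.2 and 41 CPM in WT Treg and 7.08 and 6.42 CPM in Tconv. WT Treg were above both other groups, and BATFKO Treg were below Tconv by an amount that did not pass the test (-0.74 ± 0.46, adjusted p = 0.288, against -3.69 ± 0.37, adjusted p = 1.04e-05 for BATFKO Treg against WT Treg). Icos, a costimulatory receptor, had 123 and 103 CPM in BATFKO Treg, 297 and 226 CPM in WT Treg and 130.2 and 124 CPM in Tconv (-0.17 ± 0.16, adjusted p = 0.515 against Tconv, -1.21 ± 0.16, adjusted p = 2e-04 against WT Treg). Cd44, the activation marker that binds hyaluronan, had 127 and 83.8 CPM in BATFKO Treg, 196 and 179 CPM in WT Treg and 96.8 and 109 CPM in Tconv (0.03 ± 0.14, adjusted p = 0.903 against Tconv). Rora, a nuclear receptor of tissue Treg and Th17 cells, had 54.4 and 35 CPM in BATFKO Treg, 148 and 106 CPM in WT Treg and 41.7 and 35 CPM in Tconv (0.23 ± 0.19, adjusted p = 0.456 against Tconv, -1.50 ± 0.18, adjusted p = 9.54e-05 against WT Treg). In each of Icos, Cd44 and Rora both WT Treg libraries were above all BATFKO and Tconv libraries. Gpr15, a gut-homing receptor, and the calcium-binding protein gene S100a4 were named after their values were seen. Gpr15 had 0.267 and 0 CPM in BATFKO Treg, 8.7 and 9.09 CPM in WT Treg and 0.354 and 0.482 CPM in Tconv. S100a4 had 12 and 9.996 CPM in BATFKO Treg, 43.1 and 44.6 CPM in WT Treg and 7.25 and 7.55 CPM in Tconv, with BATFKO Treg between the other groups.

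**Figure D3:**
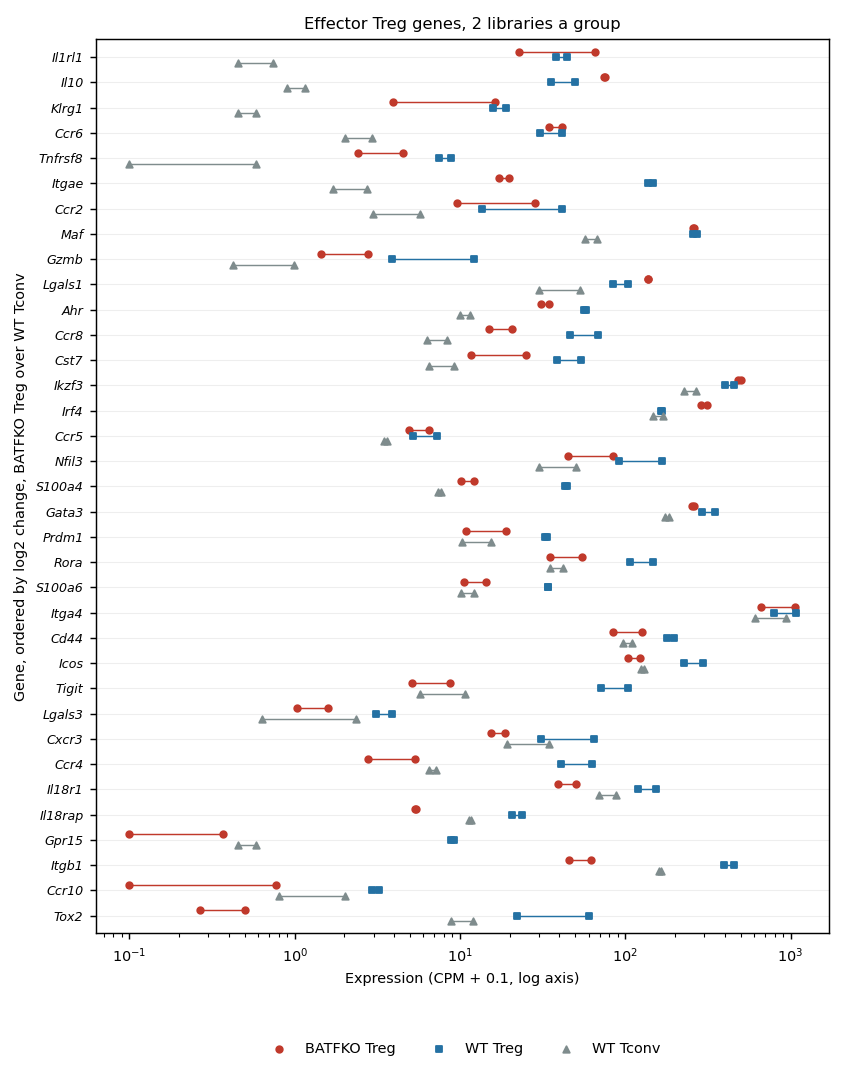
Expression of the 35 effector Treg genes in each library, in CPM plus 0.1 on a log axis, ordered by the log2 change of BATFKO Treg over WT Tconv; circles are BATFKO Treg, squares WT Treg and triangles WT Tconv. At the top, genes such as Il1rl1 and Ccr6 overlap between both kinds of Treg, and towards the bottom BATFKO Treg fall to or below Tconv, as for Ccr4, Itgb1 and Tox2.

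Some genes that WT Treg express above Tconv were below Tconv in BATFKO Treg. Itgb1 (chr8:128685654-128733200, plus strand), the beta-1 integrin chain used for adhesion to matrix and vessel walls, had 61.6 and 45.6 CPM in BATFKO Treg, 453 and 398 CPM in WT Treg and 159.7 and 164 CPM in Tconv. The 3 groups did not overlap, and the change against Tconv was -1.59 ± 0.14, adjusted p = 1.19e-07 in BATFKO Treg and 1.39 ± 0.14, adjusted p = 4.52e-07 in WT Treg. Between the Treg groups it was -2.98 ± 0.15, adjusted p = 6.33e-10. Tox2, an HMG-box factor of follicular helper T cells, had 0.401 and 0.167 CPM in BATFKO Treg, 21.9 and 60.0 CPM in WT Treg and 8.67 and 11.9 CPM in Tconv, a change of -5.07 ± 1.03, adjusted p = 0.00125 in BATFKO Treg against Tconv. The call of Tox2 in WT Treg against Tconv was lost without WT Treg library 2 or without Tconv library 1. Il18rap, a chain of the IL-18 receptor, had 5.21 and 5.33 CPM in BATFKO Treg, 23.5 and 20.6 CPM in WT Treg and 11.5 and 11.2 CPM in Tconv (-1.11 ± 0.23, adjusted p = 0.00132 in BATFKO Treg and 0.96 ± 0.19, adjusted p = 0.00108 in WT Treg, both against Tconv). Adap1, an ARF GTPase-activating protein gene, had 1.6 and 3.33 CPM in BATFKO Treg, 22.6 and 33.9 CPM in WT Treg and 5.31 and 6.75 CPM in Tconv. Its call against Tconv (-1.33 ± 0.37) was lost without BATFKO library 1 or without Tconv library 2. Ly6a (Sca-1), an interferon-inducible surface protein, went the opposite way, with 113 and 117 CPM in BATFKO Treg, 44.5 and 41.5 CPM in WT Treg and 61.9 and 62.1 CPM in Tconv (0.89 ± 0.17, adjusted p = 0.000622 in BATFKO Treg against Tconv).

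**Figure D4:**
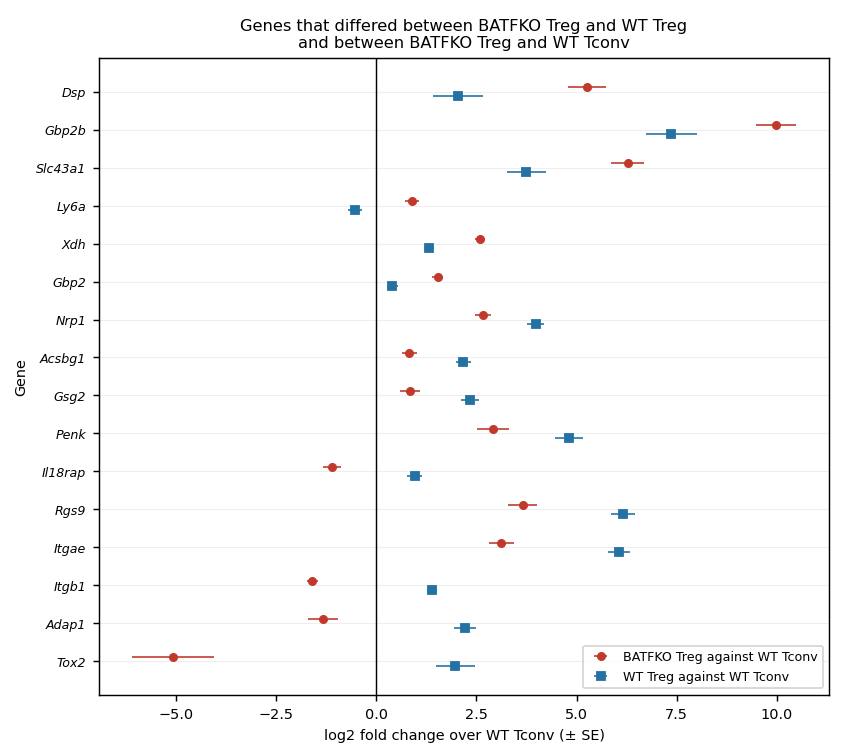
Log2 fold change over WT Tconv, ± SE, of BATFKO Treg (circles) and WT Treg (squares) for 16 genes chosen by their small p among those called both between BATFKO and WT Treg and between BATFKO Treg and Tconv. Circles lie left of 0 and squares right of it for Tox2, Adap1, Itgb1 and Il18rap.

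Homing receptors were divided among higher, lower and uncalled genes against Tconv. Between BATFKO and WT Treg, 6 of 29 homing genes were lower (20.7%), against 1.64% of all tested genes. Of the tested helper genes, 4 of 13 Th1 (30.8%) and 3 of 9 Th17 genes (33.3%) were lower. So were 3 of 12 follicular helper (25%) and 2 of 9 Th2 genes (22.2%). The Th17 factor Rora, given above, was among them. Only 1 gene of these lists, a Th1 gene, was higher (7.69% of that list, against 1.05%). Of 29 homing receptors and integrins, 10 were higher and 4 lower in BATFKO Treg than in Tconv (13 and 3 in WT Treg). The 10 and 4 are 34.5% and 13.8%, against 12.8% and 9.14% of all tested genes. The integrin genes shared by all T cells, Itgb2, Itgb7 and Itga4, were uncalled in BATFKO Treg, between 0.08 and 0.15 on the log2 scale. Itgb3 had 71.4 and 94.3 CPM in BATFKO Treg, 91.2 and 102 CPM in WT Treg and 216 and 206 CPM in Tconv and was lower in both kinds of Treg. Of 9 Th17 genes tested, 3 (33.3%) were higher in BATFKO Treg than in Tconv (Ccr6, Ahr and Stat3, the last not called without BATFKO library 2 or without Tconv library 1). In WT Treg 4 were higher, Rora, Ccr6 and Ahr among them. Of 12 follicular helper genes, 5 were higher (41.7%) and 1, Tox2, lower (8.33%) in BATFKO Treg, against 8 higher in WT Treg. Without BATFKO library 1 the 5 became 3. Cxcr5, the follicle-homing receptor, had 33.4 and 37.8 CPM in BATFKO Treg, 30.7 and 51 CPM in WT Treg and 11.1 and 14.8 CPM in Tconv (1.45 ± 0.26, adjusted p = 0.000411 in BATFKO Treg). Of 13 Th1 genes, 5 were lower in BATFKO Treg than in Tconv (38.5%) and 2 higher (15.4%), against 3 and 3 in WT Treg. Among the lower ones, the chemokine gene Ccl5 had 2.41 and 4.83 CPM in BATFKO Treg, 9.38 and 18.2 CPM in WT Treg and 12.9 and 27 CPM in Tconv. Fasl, the ligand of the death receptor FAS, had 6.82 and 6.16 CPM in BATFKO Treg, 7.48 and 11.4 CPM in WT Treg and 24.1 and 23.8 CPM in Tconv, with both kinds of Treg below Tconv. Tbx21 (T-bet), the Th1 factor, was uncalled at -0.08 ± 0.32. Of 9 Th2 genes tested, 4 were higher in BATFKO Treg (44.4%), against 5 in WT Treg. Among them was the Th2 factor Gata3, with 261 and 255 CPM in BATFKO Treg, 289.7 and 348 CPM in WT Treg and 174 and 183 CPM in Tconv. Without Tconv library 1 the Th2 count was 2, and Gata3 was not called without that library or without BATFKO library 1.

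Genes that are low in Treg were low without BATF too. Of 24 genes of the conventional T cell list, 17 were lower and 1 higher in BATFKO Treg than in Tconv (median -1.69), against 18 and 1 in WT Treg (median -1.57). The 17 and 1 are 70.8% and 4.17%, against 9.14% and 12.8% of all tested genes. Pde3b (chr7:114415281-114539251, plus strand), a phosphodiesterase that breaks down cyclic nucleotides and a gene repressed by Foxp3, had 9.09 and 11 CPM in BATFKO Treg, 15.6 and 15.5 CPM in WT Treg and 246 and 215 CPM in Tconv. Both kinds of Treg were far below Tconv, with a log2 change of -4.52 ± 0.19 in BATFKO Treg (adjusted p = 6.42e-12). Atp8b4, a lipid flippase gene, had 2.27 and 3.83 CPM in BATFKO Treg, 1.5 and 0.826 CPM in WT Treg and 72.7 and 52.4 CPM in Tconv. Of 22 naive and central T cell genes, 11 were lower and 2 higher in BATFKO Treg (median -0.47), and 13 and 4 in WT Treg (median -0.79). The 11 and 2 are 50% and 9.09% of the list. Lef1 and Tcf7 are HMG-box factors of naive T cells. Lef1 had 269 and 349.5 CPM in BATFKO Treg, 322 and 302 CPM in WT Treg and 872 and 902 CPM in Tconv. Tcf7 had 817 and 1008 CPM in BATFKO Treg, 752 and 901 CPM in WT Treg and 2082 and 2065 CPM in Tconv. In both genes the BATFKO and WT Treg libraries overlapped, and the change against Tconv in BATFKO Treg was -1.52 ± 0.12, adjusted p = 2.49e-08 for Lef1 and -1.18 ± 0.11, adjusted p = 3.03e-07 for Tcf7. Igfbp4, which encodes a binding protein of insulin-like growth factors, had 176 and 278 CPM in BATFKO Treg, 203 and 208 CPM in WT Treg and 830.5 and 827 CPM in Tconv. Dapl1 had 5.61 and 6.83 CPM in BATFKO Treg, 5.71 and 4.79 CPM in WT Treg and 72.7 and 47.5 CPM in Tconv, and for Igfbp4 and Dapl1 the libraries of both kinds of Treg overlapped. The lymph node homing gene Ccr7 did not pass the test (-0.48 ± 0.33, adjusted p = 0.335) except when BATFKO library 2 was left out, nor did the quiescence factor Klf2 (-0.46 ± 0.41, adjusted p = 0.483). The resting list from sorted populations (227 genes) had 89 lower and 12 higher in BATFKO Treg (median -0.62), and 85 and 5 in WT Treg (median -0.58). The 89 and 12 are 39.2% and 5.29% of the list.

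Many interferon response genes were higher in BATFKO Treg than in Tconv, and some were also higher than in WT Treg. Of 27 genes, 18 were higher and 1 (Ifit2) lower in BATFKO Treg than in Tconv (median 0.82), and 8 were higher in WT Treg than in Tconv (median 0.23). The 18 and 1 are 66.7% and 3.7%, against 12.8% and 9.14% of all tested genes. Against WT Treg, 9 were higher in BATFKO Treg (33.3%, against 1.05% of all tested genes) and the other 18 were not called (median 0.63). The list summed to 4339 and 5293 CPM in BATFKO Treg, 3190 and 3005 CPM in WT Treg and 2716 and 2556 CPM in Tconv. Gbp2 (chr3:142620602-142638008, plus strand), whose promoter window is printed above, had 223 and 209 CPM in BATFKO Treg, 104 and 91.2 CPM in WT Treg and 76.4 and 72.1 CPM in Tconv (1.54 ± 0.14, adjusted p = 1.31e-07 against Tconv, 1.14 ± 0.14, adjusted p = 7.35e-05 against WT Treg). Gbp3 had 132 and 122 CPM in BATFKO Treg, 85.8 and 74 CPM in WT Treg and 11.3 and 13.3 CPM in Tconv. Guanylate-binding proteins are interferon-induced GTPases that attack intracellular pathogens, and reads can be shared among these close paralogs, so single values are uncertain. Gbp5 had 148 and 118 CPM in BATFKO Treg, 94.1 and 71.4 CPM in WT Treg and 25.5 and 21.2 CPM in Tconv. Iigp1, an immunity-related GTPase, had 178 and 98.6 CPM in BATFKO Treg, 72.2 and 39.5 CPM in WT Treg and 29.5 and 20.9 CPM in Tconv (2.46 ± 0.30, adjusted p = 5.72e-06 against Tconv). Irf7, Bst2 and Irf9 were uncalled against Tconv (adjusted p = 0.355, 0.0749 and 0.0904), and BATFKO library 2 was above library 1 for each. Irf7, the factor that amplifies type I interferon responses, had 85 and 245 CPM in BATFKO Treg, 97.1 and 124 CPM in WT Treg and 106 and 139 CPM in Tconv. The count of 18 was 25 without BATFKO library 1 and 15 without BATFKO library 2, and the 6 libraries fitted alone called 5 members higher.

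**Figure D5:**
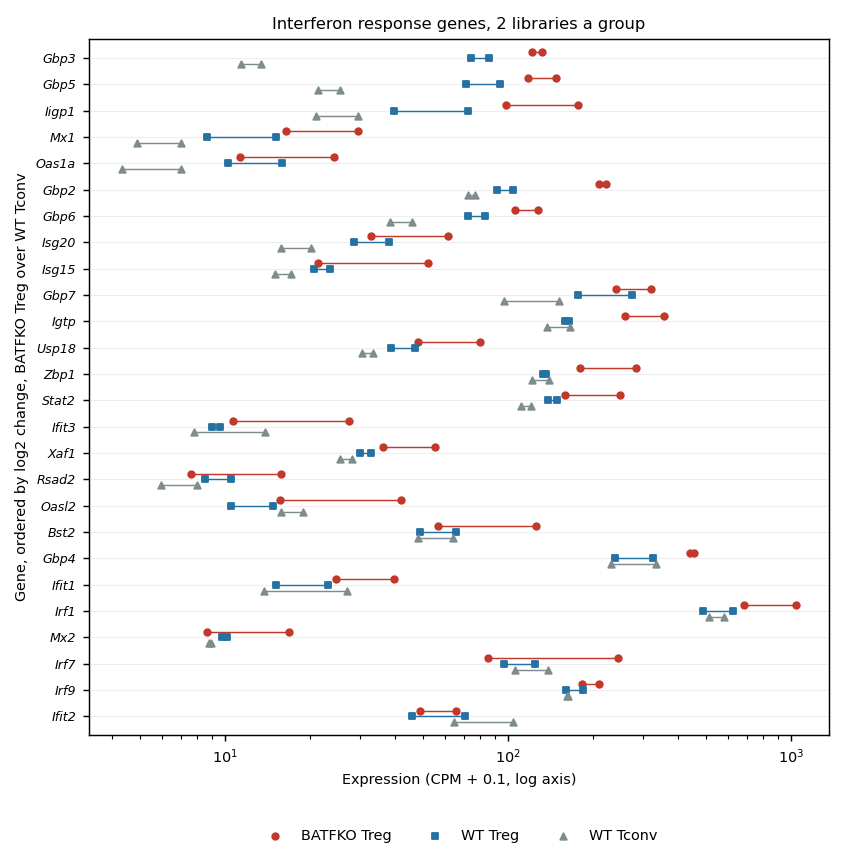
Expression of 26 interferon response genes in each library, in CPM plus 0.1 on a log axis, ordered by the log2 change of BATFKO Treg over WT Tconv; circles are BATFKO Treg, squares WT Treg and triangles WT Tconv. For Gbp2 and Igtp the circles lie right of all squares and triangles.

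The largest differences between BATFKO Treg and Tconv were in genes near 0 in one group. Besides Lrrc32, the 10 largest increases were in Peli2, Fzd6, Gbp2b, Gja1, Daw1, Il1rn, Pparg, Spag16 and Galnt14. Peli2, an E3 ubiquitin ligase gene, had 22.1 and 23.5 CPM in BATFKO Treg, 7.88 and 6.94 CPM in WT Treg and 0 and 0 CPM in Tconv, at least 89.9-fold higher in BATFKO Treg than in Tconv taking 3 counts over the Tconv pair as the floor. Fzd6, a Wnt receptor, had 21.8 and 15.7 CPM in BATFKO Treg, 3.26 and 1.98 CPM in WT Treg and 0 and 0 CPM in Tconv (at least 75.5-fold higher). Gbp2b had 109 and 83.1 CPM in BATFKO Treg, 17.5 and 13.7 CPM in WT Treg and 0.177 and 0 CPM in Tconv, with 1 read in both Tconv libraries together and a count ratio of 1159 (95% interval 208 to 45830, counting error only). Il1rn, the IL-1 receptor antagonist, had 5.61 and 7.0 CPM in BATFKO Treg, 0.544 and 0.826 CPM in WT Treg and 0 and 0 CPM in Tconv (at least 24.7-fold higher). These 4 genes had no read, or 1, in Tconv. Pparg, a nuclear receptor known from adipose tissue Treg, had 8.69 and 3.17 CPM in BATFKO Treg, 0.272 and 0.826 CPM in WT Treg and 0 and 0 CPM in Tconv (at least 24.7-fold higher). For Il1rn, Pparg and Fzd6 the BATFKO libraries were also above both WT Treg libraries (3.20 ± 0.56, adjusted p = 0.00414 for Il1rn, 3.49 ± 0.58, adjusted p = 0.00179 for Pparg and 2.81 ± 0.53, adjusted p = 0.00471 for Fzd6). The call was lost for Il1rn without WT Treg library 1 and for Fzd6 without WT Treg library 2. Slc43a1, an amino acid transporter, had 44.9 and 35.1 CPM in BATFKO Treg, 8.7 and 4.96 CPM in WT Treg and 0.708 and 0.321 CPM in Tconv. Xdh, which encodes xanthine dehydrogenase, had 185 and 174 CPM in BATFKO Treg, 77.6 and 71 CPM in WT Treg and 25.5 and 33.9 CPM in Tconv. Both were called against Tconv (6.28 ± 0.41, adjusted p = 2.22e-09 and 2.59 ± 0.12, adjusted p = 2.27e-11) and against WT Treg (2.53 ± 0.27 and 1.27 ± 0.11). Dsp, the desmosome protein desmoplakin, had 25.5 and 60.0 CPM in BATFKO Treg, 5.71 and 3.3 CPM in WT Treg and 1.42 and 0.803 CPM in Tconv.

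In the other direction the largest decreases were in P4ha2, Pdlim4, Klrd1, Ggt5, Qpct, Amz1, Tox2, Adamts14, App and Adgrg5. All of these except Tox2 were at or below 3.63 CPM in both WT Treg libraries as well. Ggt5, a gamma-glutamyl transferase gene, had 1.47 and 1.17 CPM in BATFKO Treg, 2.31 and 2.64 CPM in WT Treg and 92.3 and 101 CPM in Tconv (-6.17 ± 0.26, adjusted p = 7.66e-12 in BATFKO Treg against Tconv). Pdlim4, a cytoskeletal LIM protein gene, had 0.267 and 0.50 CPM in BATFKO Treg, 0 and 0 CPM in WT Treg and 36.3 and 75.3 CPM in Tconv (-7.19 ± 0.59, adjusted p = 7.39e-08). App, the amyloid precursor protein gene, had 0.535 and 2.33 CPM in BATFKO Treg, 0.272 and 3.63 CPM in WT Treg and 31.3 and 46.7 CPM in Tconv (-4.84 ± 0.50, adjusted p = 9.06e-07). P4ha2 had 0 reads in both BATFKO libraries and 5.48 and 6.26 CPM in Tconv, at least 26.5-fold lower in BATFKO Treg. Klrd1 (CD94), an NK receptor chain also found on some T cells, had 1 read over both BATFKO libraries and 10.1 and 5.14 CPM in Tconv, a count ratio 101-fold lower (95% interval 17.7 to 4034, counting error only).

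Some proliferation and survival genes were above Tconv in BATFKO Treg. Of 20 cell cycle genes, 9 were higher in BATFKO Treg than in Tconv (45%, against 12.8% of all tested genes). The other 11 were not called (median 1.32), and 4 were higher in WT Treg (median 0.91). The count of 9 became 2 without BATFKO library 1 and 4 without Tconv library 2. Tk1, thymidine kinase, had 21.6 and 15.2 CPM in BATFKO Treg, 16.2 and 12.6 CPM in WT Treg and 3.71 and 2.73 CPM in Tconv (2.53 ± 0.27, adjusted p = 1.5e-06 for BATFKO Treg against Tconv). The replication genes Mcm2, Mcm3 and Pcna were uncalled, with log2 changes between -0.07 and 0.24. Of 19 survival genes, 9 were higher and 1 lower than in Tconv in each kind of Treg (47.4% and 5.26%). Among all tested genes, 12.8% were higher and 9.14% lower in BATFKO Treg, and 12.1% and 6.68% in WT Treg. Bcl2l1 (BCL-xL) had 52 and 53.6 CPM in BATFKO Treg, 58 and 53.2 CPM in WT Treg and 21.2 and 26.8 CPM in Tconv (1.13 ± 0.15, adjusted p = 1.3e-05 for BATFKO Treg against Tconv). Pmaip1, which encodes the death-promoting protein NOXA, had 61.1 and 60.1 CPM in BATFKO Treg, 69.6 and 80.5 CPM in WT Treg and 15.6 and 14.3 CPM in Tconv (2.02 ± 0.20, adjusted p = 4.79e-07). Of 28 antigen receptor signalling and immediate early genes, 3 were higher and 3 lower in BATFKO Treg than in Tconv (10.7% each way), close to the shares among all tested genes. Cd28, the main costimulatory receptor, had 419 and 338 CPM in BATFKO Treg, 499.5 and 505 CPM in WT Treg and 728 and 656 CPM in Tconv (-0.87 ± 0.14, adjusted p = 0.000145), below Tconv in both kinds of Treg.

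Sums of markers of other cell types differed between some of these groups. The B cell list summed to 111 and 124 CPM in BATFKO Treg, 65.9 and 90.5 CPM in WT Treg and 25.3 and 33.7 CPM in Tconv. In BATFKO Treg 5 of 9 tested genes were higher and 2 lower than in Tconv (55.6% and 22.2%, against 12.8% and 9.14% of all tested genes). The higher ones included Cd74, which T cells can also express, with 57.7 and 77.5 CPM in BATFKO Treg and 8.49 and 14.8 CPM in Tconv. Fcmr (log2 change 7.24, adjusted p = 0.000834) and Cd22 (1.99, adjusted p = 0.000871) were also higher than in Tconv. In the sorted wild-type cells Fcmr belonged to the effector-only Treg list, and Cd22 and Cd74 to the activation list. WT Treg had 3 of the 9 genes higher and 2 lower than Tconv (33.3% and 22.2%). The B cell receptor gene Cd79a was not called, with 1.6 and 2.17 CPM in BATFKO Treg and 2.12 and 2.25 CPM in Tconv. Between BATFKO and WT Treg, 0 of the 9 tested genes were called. Below the filter on low counts, Ms4a1, which encodes the B cell protein CD20, had 4 and 2 reads in BATFKO Treg and 0 reads in every WT Treg and Tconv library, and Pax5 had 0 and 0 reads in BATFKO Treg, 1 and 0 in WT Treg and 1 and 1 in Tconv. The stromal and endothelial list had 22 of 43 genes tested. Of these, 8 were higher and 1 lower in BATFKO Treg than in Tconv (36.4% and 4.55%, against 12.8% and 9.14% of all tested genes). Against WT Treg, 7 were higher in BATFKO Treg (31.8%, against 1.05% of all tested genes). Its sum was 383 and 408 CPM in BATFKO Treg, 296 and 296 CPM in WT Treg and 269.7 and 279 CPM in Tconv. Most of that was Pecam1, which T cells express, with 266 and 282 CPM in BATFKO Treg, 199 and 193 CPM in WT Treg and 246 and 251 CPM in Tconv. Fn1 (fibronectin) had 6.42 and 7.16 CPM in BATFKO Treg, 0.136 and 0.826 CPM in WT Treg and 0.177 and 0.161 CPM in Tconv. Ptrf, which encodes cavin-1, had 9.36 and 10.3 CPM in BATFKO Treg, 0.816 and 1.32 CPM in WT Treg and 0 and 0.321 CPM in Tconv. In both genes BATFKO Treg were above both WT populations, while the laminin gene Lamc1, with 55.7 and 42.6 CPM in BATFKO Treg, 74.8 and 73.8 CPM in WT Treg and 1.77 and 1.93 CPM in Tconv, was high in both kinds of Treg. Gja1, named above among the largest increases, is on this list and was also higher than in WT Treg (log2 change 4.34, adjusted p = 0.00111). The fibroblast genes Dcn, Lum, Col3a1 and Pdgfra had 0 reads in both BATFKO libraries. Pdgfra had 0 reads in every WT Treg and Tconv library as well. The collagen genes Col1a1 and Col1a2, also on this list, belonged to the effector-only Treg list of the sorted wild-type cells. Over all 43 genes, 24 and 23 had 0 reads in the BATFKO libraries. In WT Treg 17 and 18 did, and in Tconv 29 and 29. The CD8 and NK list summed to 55.5 and 55.3 CPM in BATFKO Treg, 40.8 and 53.5 CPM in WT Treg and 71.5 and 101 CPM in Tconv. Of its 10 tested genes, 5 were lower (50%) and 1 higher (10%) in BATFKO Treg than in Tconv, against 9.14% and 12.8% of all tested genes. Prf1, given above, belongs to this list too. The myeloid list summed to 118 and 202 CPM in BATFKO Treg, 104 and 135 CPM in WT Treg and 96.1 and 122 CPM in Tconv. Against Tconv, 3 of 22 genes were higher (Xcr1, Mpeg1 and Zbtb46) and 1 lower, shares near or under those among all tested genes. Against WT Treg, 2 of the 22 were higher (9.09%, against 1.05% of all tested genes) and 0 lower. One of them was Xcr1 (log2 change 2.83, adjusted p = 0.00633). The part of other cell types in the other results was not tested.

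The calls between BATFKO and WT Treg rest on the spread shared by all 26 libraries. When edgeR was fitted to the 6 libraries of these groups alone, 0 genes were called between BATFKO and WT Treg, with 523 at an unadjusted p below 0.05 and a smallest adjusted p of 0.0578, while DESeq2 on all 26 libraries called 192 higher and 268 lower. Without WT Treg library 2, edgeR over the other 25 libraries called 67 higher and 107 lower. In the same 6-library fit, BATFKO Treg against Tconv had 480 genes called higher and 180 lower, and all 25 Treg core genes were still called higher.

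Deletion of Batf by Cre expressed from the Foxp3 locus was measured in other libraries, with no Tconv of that sort. BATFcKO Treg YFP (2 libraries) were CD4+YFP+hCD2- cells with Batfflox/flox and with Foxp3-IRES-YFPCre on one Foxp3 allele and Foxp3-IRES-hCD2 on the other, and WT Treg YFP (2 libraries) came from the same gate and Foxp3 alleles without the floxed Batf. There, 39 genes were higher in BATFcKO Treg YFP (0.319%) and 210 lower (1.72%), together 2.04%. When 1 of these 4 libraries was left out in turn, 7 to 17 genes were higher and 62 to 146 lower. Of the 25 Treg core genes, 1 was higher, 3 were lower and 21 were not called (median log2 change -0.02). Among those not called, the change was -0.02 ± 0.15 for Foxp3, 0.34 ± 0.25 for Lrrc32 and 0.09 ± 0.22 for Il2ra. Of the 35 effector Treg genes, 24 were lower, against 1.72% of all genes, and 11 were not called (median -1.98). Itgb1 had 52 and 51.8 CPM in BATFcKO Treg YFP and 336 and 417 CPM in WT Treg YFP (-2.86 ± 0.15, adjusted p = 1.36e-09). Itgae had 25 and 30.9 CPM in BATFcKO Treg YFP and 141 and 169 CPM in WT Treg YFP (-2.47 ± 0.20, adjusted p = 5.53e-07). Ccr4 had 8.27 and 5.46 CPM in BATFcKO Treg YFP and 56.4 and 81.8 CPM in WT Treg YFP (-3.33 ± 0.34, adjusted p = 1.21e-05). In each of these the groups did not overlap, and BATFcKO Treg YFP were lower. Tigit had 1.72 and 2.09 CPM in BATFcKO Treg YFP and 59 and 50.1 CPM in WT Treg YFP (-4.83 ± 0.64, adjusted p = 0.000254), and Icos changed by -1.57 ± 0.17, adjusted p = 1.57e-05. Klrg1, at 16.2 and 3.83 CPM in BATFKO Treg, was near 0 after conditional deletion, with 0.345 and 0 CPM in BATFcKO Treg YFP and 20.4 and 27.9 CPM in WT Treg YFP. Of the 27 interferon response genes, 1 (Gbp2) was higher and 26 were not called (median 0.16). Of the genes that were higher in BATFKO Treg, Gbp2b, which is not on that list, changed by 1.91 ± 0.23, adjusted p = 9.95e-05 and Gbp2 by 0.59 ± 0.13, adjusted p = 0.026 (not called without BATFcKO Treg YFP library 2 or WT Treg YFP library 1), while Irf4 (0.33 ± 0.13, adjusted p = 0.285) and Ly6a (0.14 ± 0.17, adjusted p = 0.868) were not called. Whether the germline and conditional changes differ was not tested.

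RefSeq promoter windows were found for 9339 of the tested genes. TGANTCA was found in 5.87% of them, in 8.80% of the 1159 genes called higher in BATFKO Treg than in Tconv, in 6.29% of the 842 called lower and in 5.36% of the 7338 not called. Among genes called between BATFKO and WT Treg it was found in 13.2% of the 152 lower and 14.1% of the 92 higher genes, against 5.66% of the 9095 not called. The composite letters, which contain TGANTCA, were found in 9 of the 9339 windows (0.0964%). Of the genes named by the rule, Ccr4 and Zbtb46, a zinc finger factor of dendritic cells, were among them, and Zbtb46 changed by -0.01 ± 0.49, adjusted p = 1 against WT Treg and by 2.66 ± 0.72, adjusted p = 0.012 against Tconv, a call that was lost without BATFKO library 2 or without Tconv library 2. The interferon response letters were found in 3.69% of the 9339 tested genes with a window, in 9.78% of the 92 genes higher and in 3.95% of the 152 genes lower in BATFKO than in WT Treg. These shares are descriptions of the windows, without a test.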

How the data were processed

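The deposited table holds whole-number read counts per gene, made by the authors with STAR 2.6.1c on mm10, per the submitters' processing notes; the counting tool and its strand setting are not given in the sources used here, so antisense, overlapping and paralogous genes are uncertain. Per the labels' protocols, RNA was poly(A)-selected and libraries were made with a directional NEBNext kit of either of 2 versions. All 26 libraries entered one fit in edgeR 4.0.16 (R 4.3.3): TMM scaling, the filterByExpr filter (12227 of 24411 genes tested, holding at least 99.9% of the reads), 13 groups of 2 libraries, robust quasi-likelihood tests with 13 residual degrees of freedom, Benjamini-Hochberg adjustment over all tested genes and a threshold of 0.05. Each SE was derived from the fold change and its F statistic and is approximate. The exact permutation test of 2 against 2 libraries cannot go below 0.333 and was not used. Beside a group at 0 reads a fold is a lower bound from 3 counts, and intervals (95%, exact) and floors cover counting error only. DESeq2 1.42.0 and other edgeR settings gave the alternatives, and the method was tested on simulated data. The genes named were Batf and Foxp3, the 10 largest called changes in each direction with at least 5 CPM, up to 4 called and 3 uncalled genes of each list, 4 called and 4 opposed genes of each sorted list, and 6 of each combination of directions. The comparison, its lists and rules were chosen with earlier results of these data known. A few members of the lists are not reported here by name, though they enter the fits, counts, medians and sums. Columns of 4 libraries that match no sample label were not used. Coordinates are GENCODE M21 on mm10.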

Additional observations from a re-analysis of the deposited data

Results flagged for a closer look

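In 12 genes BATFKO Treg and WT Treg were both called against Tconv but in opposite directions, and the difference between the Treg groups was itself called by edgeR. The first 11 were lower in BATFKO Treg and higher in WT Treg than in Tconv, with these log2 changes of BATFKO against WT Treg: -7.52 for Cebpa (a bZIP factor best known from myeloid cells), -7.04 for Tox2, -4.73 for Ttc39c, -4.61 for Plekhg3, -4.03 for Cass4, -3.55 for Adap1, -2.98 for Itgb1, -2.80 for Nav2, -2.75 for Mpp2, -2.07 for Il18rap and -1.60 for Il18r1. The remaining gene, Ly6a, was higher in BATFKO Treg and lower in WT Treg than in Tconv, with a change of 1.42. The fitted change of Cebpa rests on 0 and 0.167 CPM in BATFKO Treg, 7.88 and 24.1 CPM in WT Treg and 3.18 and 4.34 CPM in Tconv and depends on the prior count of the fit, and its count ratio of BATFKO Treg to Tconv was 51.1-fold lower (95% interval 8.71 to 2062, counting error only). Leaving out 1 library ended at least one of the calls for Cebpa, Tox2, Ttc39c, Cass4, Adap1, Nav2, Mpp2, Il18r1 and Ly6a. For Itgb1, Il18rap and Plekhg3 every such fit gave all 3 calls. Of the genes outside the naming rule, Cebpa, Plekhg3, Cass4, Nav2 and Mpp2 are given because they met this condition.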

How the results depend on the processing

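None of the alternatives run turned the direction of a called result, and all 25 Treg core genes were higher in BATFKO Treg than in Tconv under each one. RLE scaling, no expression filter and non-robust dispersions changed no total by over 1.5 times. Counts that moved are given as higher then lower where there are a pair. A test against a 1.5-fold change called 708 and 290 genes in BATFKO Treg against Tconv, 756 and 198 in WT Treg against Tconv, 41 and 80 in BATFKO against WT Treg, and 2 and 83 in the conditional pair. The 6 germline libraries fitted alone called 480 and 180, 449 and 118, and 0 and 0 by edgeR (523 at an unadjusted p below 0.05) in the first 3 comparisons. The libraries of each comparison alone called 396 and 145, 433 and 115, 0 and 0 (458 unadjusted), and 68 higher in the conditional pair, where DESeq2 called 83 higher. In these smaller fits fewer libraries estimate the spread. The germline groups also varied more between their libraries than the other groups did, as given above. The conditional pair alone called 290 genes lower, against 210 with all libraries. What lowered the germline counts was not tested. Of the lists in BATFKO Treg against Tconv, the 1.5-fold test, the 6 libraries and the 4 libraries alone called 7, 7 and 6 naive and central genes lower, 10, 5 and 6 interferon genes higher, 193, 117 and 94 activation genes higher and 40, 26 and 15 resting genes lower. The 6 and the 4 libraries alone called 32 and 30 effector-only genes higher, and the 4 alone called 8 effector Treg and 64 shared lineage genes higher. Against WT Treg 0 effector Treg genes were lower in either, and 19 with all libraries. Libraries of different groups share only a number, not a stated animal or day, though deviations of same-numbered libraries correlated at 0.495 (BATFKO Treg and Tconv), 0.557 (BATFKO and WT Treg) and 0.571 (WT Treg and Tconv). With the number as a replicate block, 2013 genes were lower in BATFKO Treg and 1631 in WT Treg than in Tconv, and BATFKO against WT Treg had 334 and 429. Of the genes described as not called against Tconv, Bst2, Ccr7, Gzmb and Irf9 were called with the block. With the block and the 6 libraries alone, a setting chosen after seeing the data, these were 2076, 1652, 375 and 493. Leaving out each library in turn gave 1327 to 1711 higher and 907 to 1382 lower in BATFKO Treg against Tconv, 1173 to 1331 and 610 to 770 in WT Treg against Tconv, 67 to 183 and 107 to 214 in BATFKO against WT Treg, and 7 to 17 and 62 to 146 in the conditional pair. For lists it gave 25 Treg core, 10 to 12 suppressor, 12 to 15 effector Treg, 15 to 25 interferon, 91 to 97 shared lineage, 98 to 106 effector lineage, 64 to 84 effector-only and 229 to 318 activation genes higher, and 9 to 11 naive, 16 to 17 conventional, 85 to 88 Treg-low and 67 to 99 resting genes lower, with 15 to 18 effector Treg genes lower than in WT Treg. Except where the construction of a fit is named, the cause was not tested. With 2 libraries a group, genes of a few reads give folds with wide counting intervals.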
